A study of Mus musculus with 4 samples.

Results

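The 8 subunit genes of the cytosolic chaperonin CCT (also called TRiC) were *Tcp1*, *Cct2*, *Cct3*, *Cct4*, *Cct5*, *Cct6a*, *Cct7* and *Cct8*. They were matched by gene symbol, in a choice of complex made with earlier results of these data known, and every transcript of theirs that was tested was kept, which gave 17 transcripts of the 34200 transcripts of 21945 genes tested. NIH/3T3 cells are immortalised fibroblasts of the mouse. They received 2 *Setd2*-specific siRNAs (KD) or Scrambled siRNA (WT), both at a final concentration of 10 nM, and polyadenylated RNA was taken after 48 h. WT therefore means cells treated with Scrambled siRNA, and both groups carried the transfection reagent and an siRNA. SETD2 is the histone methyltransferase that places H3K36me3 along transcribed genes, and the question asked here was how the mRNA of the chaperonin subunits stood when it was depleted. There were 2 KD and 2 WT libraries, and the sources do not say whether the libraries of a group came from separate cultures, so p-values may cover technical spread only.

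CCT is a double ring in which each ring holds 1 copy of each of the 8 subunits. It encloses newly made proteins and folds them while its subunits bind and hydrolyse ATP. Actin and tubulin depend on it, as do many proteins with WD40 repeats. Prefoldin hands unfolded actin and tubulin to the rings, phosducin-like proteins act as cofactors, and tubulin cofactors take tubulin on after its release. The mitochondrial chaperonin of *Hspd1* and *Hspe1* belongs to a separate group of ring chaperones. The transcription factor HSF1 is known to drive genes of cytosolic chaperones.

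The tables used here summarise the libraries, and values of single libraries were not used, so whether KD and WT libraries overlapped cannot be said and their depth is unknown. Each level below is the back-transformed mean of the 2 libraries of a group, in normalised estimated counts, and a log2(fold change) is KD over WT. A transcript was called higher or lower in KD when the adjusted p of limma's moderated test, adjusted over all 34200 transcripts by Benjamini-Hochberg, was under 0.05. The targeted transcript was read first. *Setd2* (ENSMUST00000153838.7) stood at 923 in KD and 3680.4 in WT, a log2(fold change) of −1.99 ± 0.081 (SE), which is 74.9% lower in KD (limma adjusted p = 0.0144). Of 8 fibroblast markers, 8 were tested, with a summed level of 1113604 in KD and 1246847 in WT. *Col1a1*, *Col1a2* and *Col3a1* were called lower. The tested transcripts of *Pdgfrb* and *Vim* lay above WT and those of *S100a4* and *Thy1* below it, without a call. *Fn1* had 2 of its 6 transcripts called higher, among them the one with the highest level, and the other 4 lay below WT without a call. Summed markers of epithelial, endothelial and leukocyte cells stood at 158, 84.1 and 765 in KD against 119, 57.3 and 934 in WT, and *Epcam*, *Krt18* and *Krt19* were not tested. Of the leukocyte markers, *Lyz2* alone was called, on the lower side (log2(fold change) −0.76, limma adjusted p = 0.0302). Without a call, the transcripts of *Csf1r* and *Ptprc* lay below WT and those of *Cd68* above it. The part of these markers in the results below was not tested.

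Some of the exons that separate tested isoforms are shown first, because the isoform that was called for *Cct7* lacks an exon with codons of the ATP-binding site. The 3 coding exons below, from GENCODE M21 on GRCm38 and all on the plus strand, are absent from a minor isoform of *Cct7*, *Cct3* and *Cct4*. The capitals mark, in *Cct7*, the codons of the glycine-rich motif that contacts the phosphates of ATP in chaperonins, and in *Cct3* and *Cct4* the codons of another conserved motif of the nucleotide-binding domain. The exon of *Cct7*, of 126 bases, lies at chr6:85461045-85461170, that of *Cct3*, of 63 bases, at chr3:88300929-88300991, and that of *Cct4*, of 90 bases, at chr11:22994298-22994387.
Cct7 exon: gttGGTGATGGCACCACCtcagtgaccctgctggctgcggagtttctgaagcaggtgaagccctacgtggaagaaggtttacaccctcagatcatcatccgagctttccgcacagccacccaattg
Cct3 exon: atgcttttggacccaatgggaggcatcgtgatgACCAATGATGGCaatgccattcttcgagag
Cct4 exon: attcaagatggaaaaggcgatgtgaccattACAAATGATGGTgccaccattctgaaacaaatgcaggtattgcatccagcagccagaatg

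All 3 exons are a whole number of codons long, so their loss keeps the reading frame. *Cct7* ENSMUST00000204592.2 lacks the first, *Cct3* ENSMUST00000164166.7 the second, and *Cct4* ENSMUST00000020562.4 the third. These isoforms made up very different parts of their genes: 24.7% of the summed *Cct7* level in KD and 22.6% in WT, 29.8% and 30.2% of *Cct4*, and 0.152% and 0.107% of *Cct3*. The 63-base exon of *Cct3* is lost together with its 51-base neighbour at chr3:88300800-88300850. Short reads give these shares as estimates, since 1.8% of the 31-base words of the shorter *Cct7* transcript, 1.6% of those of the shorter *Cct4* transcript and 1.5% of those of the *Cct3* transcript occur in no other tested transcript of the gene. Tested isoforms of *Tcp1* and *Cct8* also differ by coding exons, which are not printed. An 86-base exon is absent from the main *Tcp1* transcript, ENSMUST00000089024.12, and a 181-base exon from *Cct8* ENSMUST00000175977.7. Neither is a whole number of codons long, and neither holds a motif marked above.

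**Figure D1:**
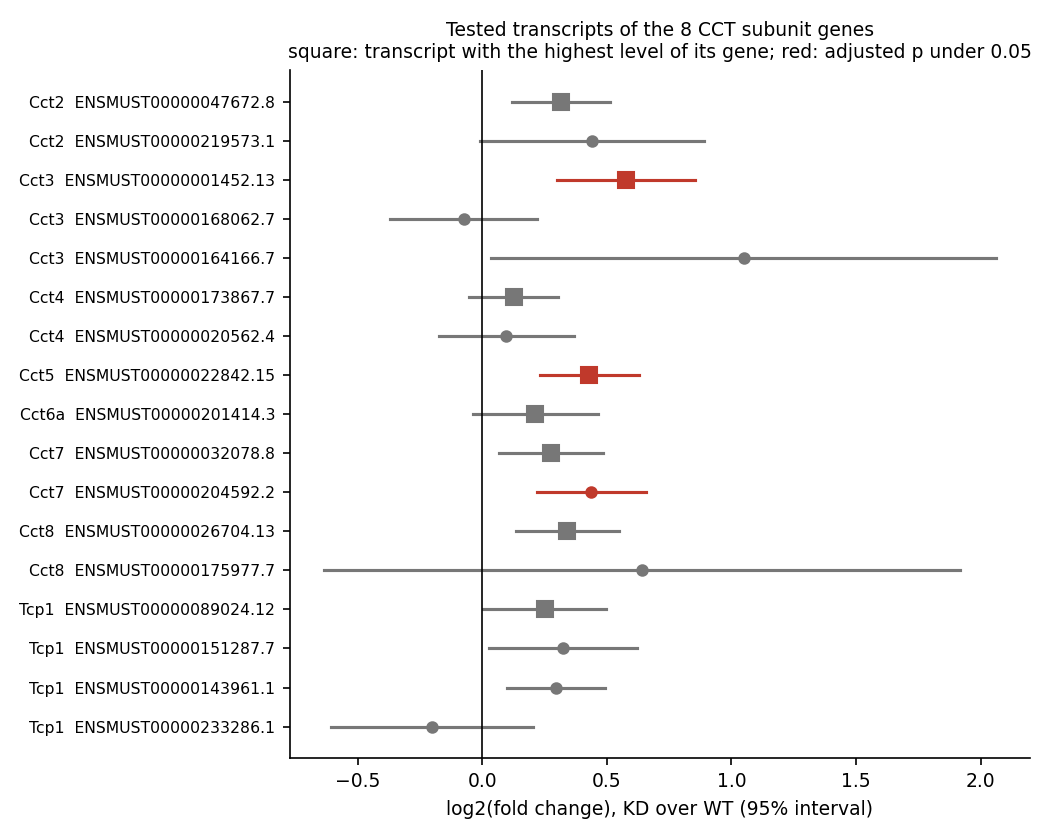
Log2(fold change) of KD over WT (x axis) for the 17 tested transcripts of the 8 CCT genes (rows), with 95% confidence intervals from limma; squares mark the transcript with the highest level of each gene, and red marks an adjusted p under 0.05. The 3 red transcripts belong to Cct3, Cct5 and Cct7, and 15 of 17 points lie above 0.

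The 8 subunits lay to the higher side in KD, by small amounts. Of the 17 transcripts, 15 were above WT and 2 below. The test called 3 of them higher (*Cct3*, *Cct5* and 1 isoform of *Cct7*), which is 17.6% of the members, beside 5.44% of all transcripts called higher. It called 0 of 17 lower, beside 4.24% of all transcripts. An unadjusted limma p under 0.05 was found for 0 of 17 on the lower side and 10 on the higher side. The share of all transcripts with such a p was not counted, so this split has no background beside it. The Wald test with a Sleuth-type variance also called 0 lower, and it called 7 members higher, beside 10.4% of all transcripts. Among transcripts of at least 100 counts, tested alone, 5 members were called higher, beside 15.6%. CCT transcripts are abundant, and abundant transcripts were called more often: among the 9010 with a mean level of at least 1000, 13.7% were called higher and 7.08% lower, beside 25% (3 of 12) and 0 of the members. The 5 members under 1000 counts gave 0 calls. In bulk RNA, more RNA per cell and more cells with RNA of a subunit cannot be told apart.

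The calls stand close to the threshold. With the fold changes centred on the median of the transcripts of at least 1000 counts, which was 0.098 on the log2 scale, 0 of 17 were called. The 3 adjusted p were then 0.0614 for *Cct3*, 0.0661 for *Cct5* and 0.0751 for *Cct7*. With 1 common prior variance in place of a trend, they were 0.163, 0.175 and 0.174.

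*Cct3*, the gamma subunit, had the largest difference among the main transcripts, a main transcript being the one with the highest level of its gene. ENSMUST00000001452.13 (chr3:88297116-88321767, plus strand, 14 exons, protein-coding) had a level of 29278 in KD and 19620.2 in WT. KD was thus 49.2% higher (95% confidence interval 23.3% to 80.6%), with a log2(fold change) of 0.58 ± 0.10 (SE) and a limma adjusted p of 0.0424. Its within-group SD of 0.13 on the log2 scale was the highest of the 8 main transcripts. Of its 31-base words, 13.1% also occur in processed pseudogenes (*Cct3-ps1*, *Gm11516* and *Gm20589*), and the only one of these that was tested, *Gm20589*, stood at 101 in KD and 105 in WT. *Cct3* ENSMUST00000168062.7 stood at 685 in KD and 721 in WT and was not called (log2(fold change) −0.07 ± 0.11, adjusted p = 0.72). ENSMUST00000164166.7, the isoform without the exons shown above, stood at 45.6 and 21.8 and was not called either (log2(fold change) 1.05 ± 0.39, adjusted p = 0.167).

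*Cct5*, the epsilon subunit, was called through its only tested transcript. ENSMUST00000022842.15 (chr15:31590800-31601804, minus strand, 11 exons, protein-coding) had the highest level of all main CCT transcripts, 41484 in KD and 30817 in WT. KD was 34.6% higher (95% confidence interval 17.3% to 54.5%), and the log2(fold change) was 0.43 ± 0.076 (SE; limma adjusted p = 0.0404). None of its 31-base words (0.0%) occurs in another gene of the annotation. Annotated isoforms of the gene that were not tested were not compared.

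*Cct7*, the eta subunit, was called through its shorter isoform. ENSMUST00000204592.2 (chr6:85452092-85468282, plus strand, 11 exons) stood at 6107 in KD and 4508 in WT, which is 35.5% higher (95% confidence interval 16.4% to 57.6%; log2(fold change) 0.44 ± 0.083, limma adjusted p = 0.0458). The deposited variance from read assignment was equal to 86.5% of its variance within groups, against 3.65% for the main transcript. Of its 31-base words, 12.0% also occur in processed pseudogenes, 6.9% in *Gm5380*, which stood at 14.4 in KD and 7.0 in WT. That main transcript, ENSMUST00000032078.8, which holds the 126-base exon, stood at 18667 and 15428 and was not called (log2(fold change) 0.27 ± 0.080, adjusted p = 0.105). Whether the isoforms of *Cct7* differed in their response was not tested, and their 95% confidence intervals, 0.22 to 0.66 and 0.07 to 0.48, overlap. Summed over both isoforms, the level of *Cct7* was 24774 in KD and 19936 in WT.

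*Cct8*, the theta subunit, and *Cct2*, the beta subunit, came next in size and were not called. *Cct8* ENSMUST00000026704.13 stood at 28096 in KD and 22162 in WT (log2(fold change) 0.34 ± 0.078, adjusted p = 0.0651). It was the 1 member called when the fold changes were centred on a running median over GC content, with a log2(fold change) of 0.50 (adjusted p = 0.0417), and the 3 other calls were then lost. Its GC content of 43.3% was the lowest of the 17. *Cct2* ENSMUST00000047672.8 stood at 37012 and 29716 (log2(fold change) 0.32 ± 0.075, adjusted p = 0.0699). Minor isoforms of both genes leaned the same way without a call: *Cct8* ENSMUST00000175977.7 at 817 and 524 (adjusted p = 0.45), with a wide within-group SD of 0.73, and *Cct2* ENSMUST00000219573.1 at 459 and 338 (adjusted p = 0.182).

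*Tcp1*, the alpha subunit, was measured through 4 transcripts. ENSMUST00000089024.12 stood at 20558 in KD and 17278 in WT (log2(fold change) 0.25 ± 0.094, adjusted p = 0.171). ENSMUST00000151287.7 stood at 14710.2 and 11749.7 (log2(fold change) 0.32 ± 0.11, adjusted p = 0.152). The short transcript ENSMUST00000143961.1 stood at 2971 and 2419.6 (log2(fold change) 0.30 ± 0.075, adjusted p = 0.0809), and the 2-exon transcript ENSMUST00000233286.1 at 193 and 222 (log2(fold change) −0.20 ± 0.15, adjusted p = 0.456). So 3 of the 4 lay above WT and 1 below, with 0 calls. *Tcp1* shares 31-base words with *Acat2* and *Acat3* on the opposite strand: 14.3% and 23.1% of the words of its longest transcripts, ENSMUST00000089024.12 and ENSMUST00000151287.7, occur there in reverse. Of the *Acat2* transcripts, the main one stood at 13976 in KD and 15094 in WT (log2(fold change) −0.11, not called) and ENSMUST00000159697.1 at 1909 and 1394 (0.45, adjusted p = 0.0501). *Acat3* ENSMUST00000043923.11 was listed at 0.0 in KD and 38.4 in WT and was called lower (adjusted p = 0.0215). The libraries keep the strand, but the strand setting of the read assignment is not given in the sources used here.

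*Cct6a*, the zeta subunit, and *Cct4*, the delta subunit, had the smallest differences. *Cct6a* ENSMUST00000201414.3 stood at 34694 in KD and 29933 in WT (log2(fold change) 0.21 ± 0.096, adjusted p = 0.233). It was the only tested transcript of the gene, is annotated as a processed transcript with no coding sequence, and shares 17.4% of its 31-base words with *Psph* on the opposite strand. *Psph*, a phosphatase of serine synthesis, rose from 4938 in WT to 7039 in KD (log2(fold change) 0.51 ± 0.064, adjusted p = 0.0245), and its part in the *Cct6a* value was not tested. *Cct4* ENSMUST00000173867.7 stood at 24157 and 22132 (log2(fold change) 0.13 ± 0.068, adjusted p = 0.303) and ENSMUST00000020562.4 at 10259 and 9589 (log2(fold change) 0.10 ± 0.10, adjusted p = 0.587). The 95% confidence interval of the main *Cct4* transcript, −0.05 to 0.30, still holds a rise of 23.5%. Its shorter isoform was at 0 when centred on transcripts of at least 1000 counts (log2(fold change) −0.0005). The testis-type homologue *Cct6b* was barely detected, with mean levels of 7.0 and 1.7 for its 2 transcripts, and was not called.

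**Figure D2:**
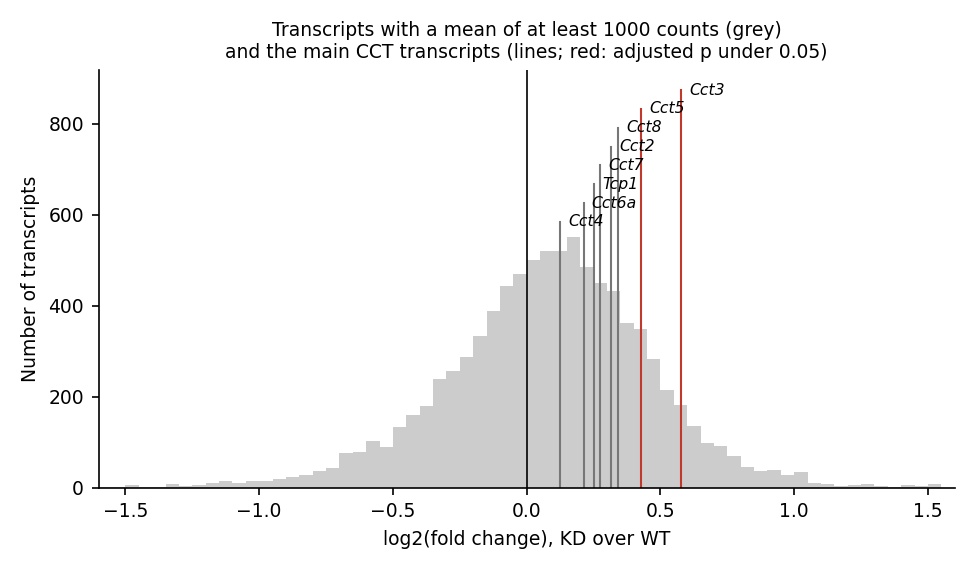
Histogram of log2(fold change) of KD over WT (x axis) for transcripts with a mean of at least 1000 counts (y axis, number of transcripts; 39 transcripts beyond 1.6 in size are not drawn), with a line for the main transcript of each CCT gene, red where the adjusted p was under 0.05. All 8 lines lie to the right of 0 and of the median of 0.098, and 7 of them lie inside the 10th to 90th percentile range of −0.40 to 0.53.

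The main transcripts of the 8 subunits all lay above WT, with log2(fold changes) from 0.13 to 0.58 and a median of 0.30. The median over all 17 transcripts was 0.32. Beside these, the median of all 34200 transcripts was −0.01, and the median of the 9010 transcripts of at least 1000 counts was 0.098, with 61.1% of them above WT. The main CCT transcripts stood between the 98.8th and the 99.4th percentile of level. *Cct3* alone lay past the 90th percentile of the abundant transcripts. Of the 8, 6 had an unadjusted limma p under 0.05 and 2 were called, and the share of abundant transcripts with such a p was not counted. The 95% confidence intervals of all 28 pairs of main transcripts overlap, and differences between subunits were not tested, since they were measured in the same libraries. Within-group SDs of the main transcripts ran from 0.056 to 0.13 on the log2 scale, beside a median of 0.085 for the abundant transcripts.

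**Figure D3:**
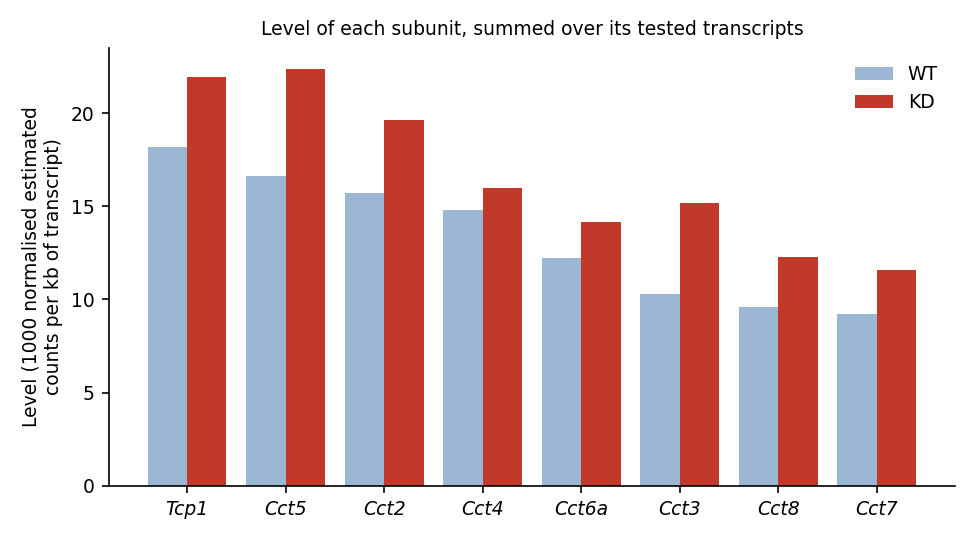
Level of each subunit per kb of transcript (y axis, 1000 normalised estimated counts per kb, from 0), summed over its tested transcripts, in WT (blue) and KD (red); bars are means of 2 libraries, and the spread of sums over libraries could not be computed. Every KD bar is higher than its WT bar, from 8.49% for Cct4 to 47.4% for Cct3.

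Per kb of transcript, the subunits were present at similar levels. In WT, the order of the summed levels per kb was *Tcp1* (18155), *Cct5* (16631), *Cct2* (15699), *Cct4* (14778), *Cct6a* (12198), *Cct3* (10307), *Cct8* (9614) and *Cct7* (9240.0). In this order, 2 of the 7 gaps between neighbours exceeded the combined within-group SD of their main transcripts: *Cct4* over *Cct6a* and *Cct6a* over *Cct3*. In KD the order was *Cct5* (22387), *Tcp1* (21945), *Cct2* (19614), *Cct4* (16003), *Cct3* (15187), *Cct6a* (14138), *Cct8* (12292) and *Cct7* (11603). There, *Tcp1* over *Cct2*, *Cct2* over *Cct4* and *Cct6a* over *Cct8* exceeded it. *Cct3* thus stood below *Cct6a* in WT and above it in KD, and the KD gap between them, 0.10 on the log2 scale, was within the spread of 0.18. The *Tcp1* sums include the short transcript ENSMUST00000143961.1, at 4838 per kb in KD and 3941 in WT. Of its words, 0.0% occur in no other tested *Tcp1* transcript. Its deposited variance from read assignment was equal to 219% of its variance within groups. The place of *Tcp1* in both orders, and its KD gap over *Cct2*, therefore rest on an uncertain estimate. The spread used lies between libraries of a group and covers main transcripts only. It does not measure the error of comparing levels of different genes, so the order of the subunits was not tested. Orders without ENSMUST00000143961.1 were not computed.

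Summed over the 8 subunits, the level per kb was 133169 in KD and 106622 in WT, which is 24.9% higher, a descriptive value with no test. The ratio of the highest to the lowest subunit was 1.93 in KD and 1.96 in WT, and the coefficient of variation over subunits was 25.2% and 25.8%. The highest subunit in WT was *Tcp1*, whose place rests on the short transcript named above. The share of *Cct3* in this sum was 9.7% in WT and 11.4% in KD, and that of *Cct4* was 13.9% and 12.0%. *Cct7* held 8.7% in both groups. mRNA was measured here, and the amount of assembled chaperonin was not.

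Promoters are printed for the 3 genes with a called transcript. These genes were picked for calls on the higher side, and the main transcripts of all 8 subunits lay above WT. The promoters are RefSeq windows on GRCm38.p6, from 250 bases before to 50 bases after the start, printed 5′ to 3′ along the gene. For *Cct5*, which has 2 windows, the one that holds the annotated start of the called transcript is printed. The *Cct7* window holds the start of the main transcript, which was not called, and the called isoform starts downstream of it. Capitals mark the GC box GGGCGG and the CCAAT box CCAAT on either strand. The *Cct3* window lies at chr3:88296885-88297184 (plus strand), that of *Cct5* at chr15:31601797-31602096 (minus strand) and that of *Cct7* at chr6:85451255-85451554 (plus strand).
Cct3 promoter: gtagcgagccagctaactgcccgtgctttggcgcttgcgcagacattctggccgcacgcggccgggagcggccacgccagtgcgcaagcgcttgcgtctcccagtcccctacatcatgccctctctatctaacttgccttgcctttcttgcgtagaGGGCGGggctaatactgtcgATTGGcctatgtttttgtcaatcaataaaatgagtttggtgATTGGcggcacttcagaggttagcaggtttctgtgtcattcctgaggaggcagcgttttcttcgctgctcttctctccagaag
Cct5 promoter: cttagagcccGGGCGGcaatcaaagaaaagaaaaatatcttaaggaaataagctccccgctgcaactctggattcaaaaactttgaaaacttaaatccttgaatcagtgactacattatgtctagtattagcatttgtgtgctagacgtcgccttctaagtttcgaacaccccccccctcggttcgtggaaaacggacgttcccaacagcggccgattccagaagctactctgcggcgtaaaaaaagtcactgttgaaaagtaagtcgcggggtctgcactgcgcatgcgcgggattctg
Cct7 promoter: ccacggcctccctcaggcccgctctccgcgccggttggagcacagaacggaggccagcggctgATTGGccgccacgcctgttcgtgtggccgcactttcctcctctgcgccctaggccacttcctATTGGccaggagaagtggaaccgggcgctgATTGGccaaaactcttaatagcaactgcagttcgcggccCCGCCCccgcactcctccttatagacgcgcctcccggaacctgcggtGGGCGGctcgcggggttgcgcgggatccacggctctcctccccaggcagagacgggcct

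The table held 9 windows for 7 of the 8 genes, all but *Cct4*. All 7 genes had a GC box in at least 1 window (8 of 9 windows), a match found in 35.7% of the 32851 windows of the table. The CCAAT box was found in 4 genes (37.4% of all windows) and the ETS motif CCGGAAG in *Cct2*, *Cct8* and *Tcp1* (8.9%). The heat shock element GAANNTTC was matched in the second window of *Cct2* alone (7.9%), while the E-box CACGTG (7.2%) and the TATA box TATAAA (13.6%) gave 0 matches. Both strands were searched, and no matches of different motifs overlapped. The windows held 19 to 30 CG dinucleotides, beside a median of 7 over all windows, and a GC content of 47.3% to 67.7% beside a median of 52.7%. These are matches of letters only.

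**Figure D4:**
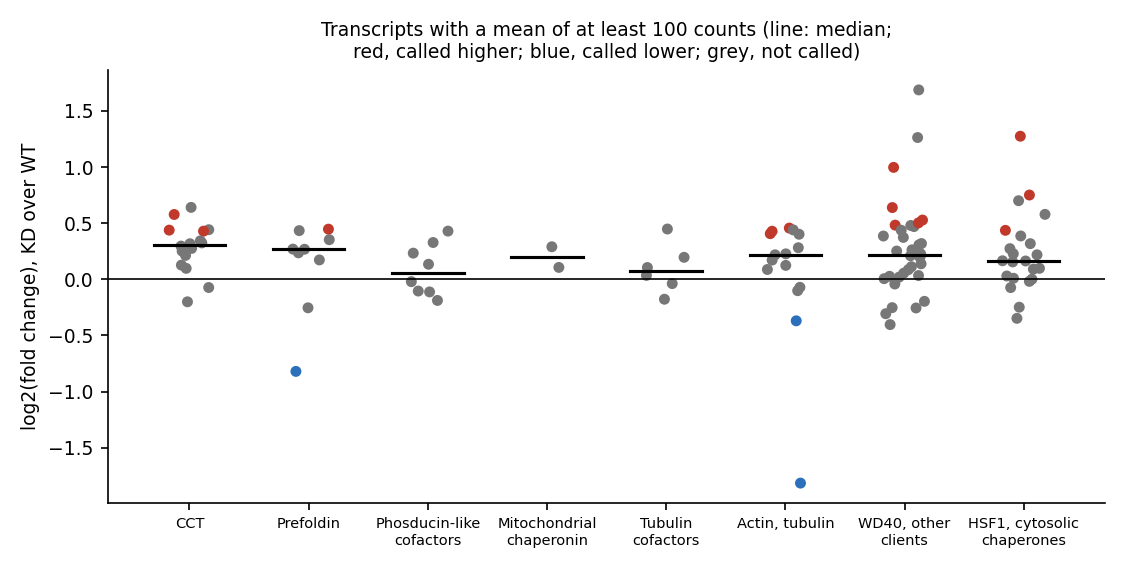
Log2(fold change) of KD over WT (y axis) for transcripts with a mean of at least 100 counts, by gene group (x axis); each point is a transcript, the line is the median, and red or blue marks a transcript called higher or lower. The median was 0.31 for 16 CCT transcripts, 0.27 for 9 prefoldin transcripts and 0.06 for 8 transcripts of phosducin-like cofactors.

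Of the genes that work with the chaperonin, those of prefoldin were called in both directions. In this complex, 1 of 6 genes was called higher and 1 lower, beside 7.47% of all genes called higher and 5.93% called lower, with a median log2(fold change) of 0.27 over 17 transcripts. Here and in the lists below, such shares of all genes are not matched for level or number of isoforms, and abundant transcripts were called more often. *Vbp1*, a prefoldin subunit, rose from 4877 in WT to 6647 in KD (log2(fold change) 0.45 ± 0.073, adjusted p = 0.0355). *Pfdn4*, another subunit of the same complex, fell from 4867 to 2755 (log2(fold change) −0.82 ± 0.076, adjusted p = 0.0183). The phosducin-like cofactors, 3 of 4 tested (*Pdcl2* was not), gave 0 calls and a median of 0.06. The 7 tubulin cofactors gave 0 calls and a median of 0.15. With limma, 2 transcripts of these last lists, of 8 tested transcripts each, had an unadjusted p under 0.05. They were *Tbcb* (log2(fold change) 0.45, adjusted p = 0.071) and 1 of *Txndc9* (0.43, adjusted p = 0.113), named after their values were seen. The share of all transcripts with such a p was not counted, so this count has no background beside it. The Wald test called 3 prefoldin genes higher and 1 lower, beside 14.1% of all genes called higher and 10.8% called lower. It called 1 tubulin cofactor gene higher and no phosducin-like gene.

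Among clients, the actin and tubulin genes were called in both directions, 3 higher and 2 lower of 18 tested (*Tubg2* was not), beside 7.47% and 5.93% of all genes, with a median log2(fold change) of 0.22. *Actb*, cytoplasmic beta-actin, rose from 82423 in WT to 113066 in KD (log2(fold change) 0.46 ± 0.082, adjusted p = 0.0414). *Actg1*, cytoplasmic gamma-actin, stood at 137953 in KD and 118594 in WT and was not called (0.22 ± 0.063, adjusted p = 0.105). *Acta2*, the smooth muscle actin that marks activated fibroblasts, fell from 7508 to 2131.5 (log2(fold change) −1.82 ± 0.16, adjusted p = 0.0183). The other calls, named after their values were seen, were *Tuba1b* (0.41) and *Tubb6* (0.43) on the higher side and *Tuba1a* (−0.37) on the lower. All 3 higher calls ended when centred on transcripts of at least 1000 counts, with an adjusted p of 0.0659 for *Actb*, 0.0614 for *Tubb6* and 0.0768 for *Tuba1b*, as did that of *Vbp1* (0.0559). With 1 common prior variance, 0 genes of the actin and tubulin list were called in either direction. The Wald test called 6 of its genes higher and 2 lower, beside 14.1% and 10.8% of all genes. Centred over GC content, *Actb* and *Tuba1b* lost their calls (adjusted p = 0.0644 and 0.194), *Tuba1a* remained called (0.0295), and *Tubb6* and *Acta2* were not tested, as their transcript versions matched no GC content. With that centring *Vbp1* remained called (log2(fold change) 0.85, limma adjusted p = 0.0221).

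Of the 18 WD40 and other client genes, 5 were called higher and 0 lower with limma, beside 7.47% and 5.93% of all genes, with a median log2(fold change) of 0.21 over 41 transcripts. Those shares are not matched for the level or the number of transcripts of these genes. Among transcripts of at least 1000 counts, 13.7% were called higher and 7.08% lower. The Wald test called 8 of the genes higher and 3 lower, beside 14.1% and 10.8% of all genes. Without a variance trend 0 were called higher, and with centring on transcripts of at least 1000 counts 4 were called higher and 3 lower. The largest rise by rule was an isoform of *Mlst8*, a subunit of the mTOR complexes, at 22.0 in KD and listed at 0.0 in WT, which allows no fold. Its mean level was 2.9. The *Mlst8* isoform with the highest level was not called (log2(fold change) 0.44, limma adjusted p = 0.0553). Another, ENSMUST00000234543.1, stood lower, at 38.4 in KD and 95.1 in WT, without a call. The other genes called higher, named after their values were seen, were *Rptor* (log2(fold change) 1.00), the mTORC1 scaffold, *Gnb2* (0.48 and 0.64 for 2 isoforms), a G protein beta subunit, *Ppp2r2a* (0.53), a PP2A subunit, and 1 isoform of *Strn3* (0.50), a striatin. The *Strn3* isoform with the higher level, ENSMUST00000169503.3, went the other way without a call. It stood at 3833 in KD and 5071 in WT (log2(fold change) −0.40 ± 0.083, limma adjusted p = 0.053). Centred over GC content, neither *Gnb2* isoform was called (adjusted p = 0.11 and 0.0728).

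The cytosolic chaperones and HSF1 were tested for 13 of 14 genes (*Hspb1* was not), with 2 genes called higher and 0 lower, beside 7.47% and 5.93% of all genes, and a median log2(fold change) of 0.16. *Hsf1* rose in 2 of its transcripts. ENSMUST00000072838.5 stood at 474 in KD and 196 in WT (log2(fold change) 1.27 ± 0.20, adjusted p = 0.0345), and ENSMUST00000227478.1, chosen after its value was seen, at 3491 and 2074 (0.75 ± 0.13, adjusted p = 0.0371). *Stip1*, the HSP70 to HSP90 adaptor, was the other gene called (0.44, adjusted p = 0.0291), also named after its value was seen. With 1 common prior variance, 0 genes of the list were called. After centring over GC content neither *Hsf1* transcript was called (adjusted p = 0.0553 and 0.075), and *Stip1* was not tested, as its transcript version matched no GC content. The Wald test called 6 genes of the list higher and 1 lower, beside 14.1% and 10.8% of all genes, but did not call ENSMUST00000072838.5 (adjusted p = 0.451). The mitochondrial chaperonin gave 0 calls of 2 genes: *Hspd1* stood at 63406 in KD and 58927 in WT (log2(fold change) 0.11 ± 0.12, adjusted p = 0.621), and its partner *Hspe1* at 39615 and 32407 (0.29 ± 0.073, adjusted p = 0.0799). The unadjusted limma p of *Hspe1* was 0.0124, and the Wald test called it.

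**Figure D5:**
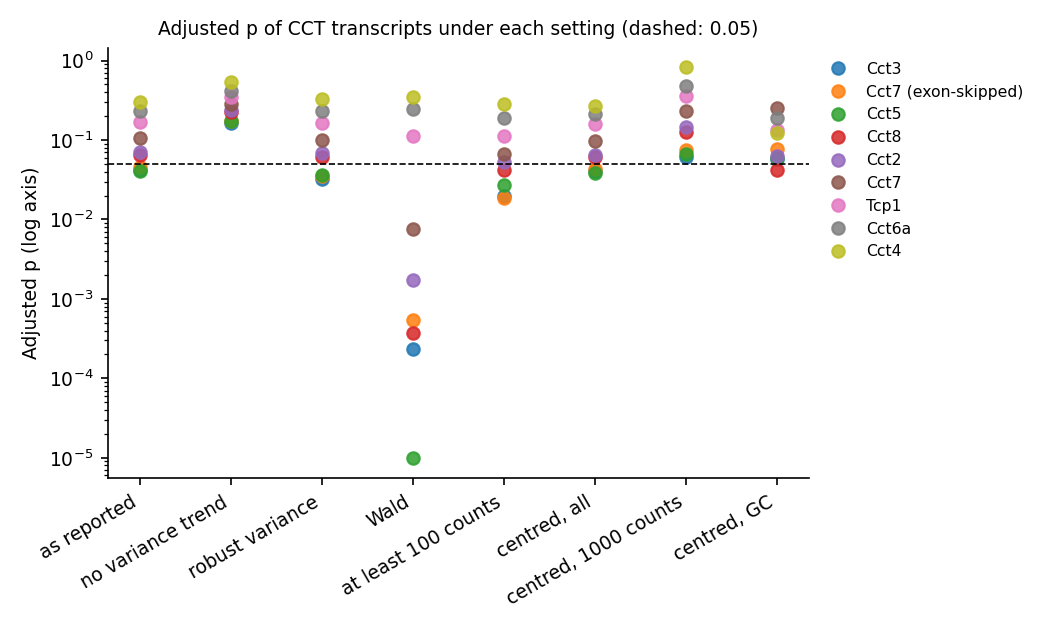
Adjusted p (y axis, log scale) of the main transcript of each CCT gene and of the called Cct7 isoform (marked exon-skipped) under each setting of the analysis (x axis); the dashed line is 0.05. The 3 called transcripts lie under the line as reported, with the robust variance, above 100 counts, centred on all transcripts and in the Wald test, and above it without a variance trend or when centred on abundant transcripts or on GC content.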

How the data were processed

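RNA-seq of 2 KD and 2 WT libraries of NIH/3T3 cells was analysed from the transcript table. Adapters were trimmed by the authors with BBDuk, transcript counts were estimated with Kallisto, and KD was compared with WT in Sleuth. The labels name GRCm38 and bcl2fastq 2.17, and the transcriptome and the strand setting are not given in the sources used here. The deposited means are natural log values of normalised estimated counts plus 0.5 over all 4 libraries, and the deposited variances, also on the natural log scale, are the total variance, the variance from read assignment and the remaining variance between libraries. The deposited effects, standard errors, statistics, p-values and q-values of 2 kinds of test (likelihood ratio and Wald), and the combined p-values of the authors' gene table, were not used, except that the sign of the effect gave the direction. The table held 0 columns of single libraries, so the depth is unknown and no counting error is given.

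The size of each difference was rebuilt from the total and within-group variances, which differed from the size of the deposited effect by at most 3.1e-10. limma 3.58.1 (R 4.3.3) squeezed the within-group variance (2 residual and 2.66 prior degrees of freedom) with a trend on the mean, and the moderated test was two-sided, with Benjamini-Hochberg adjustment over 34200 transcripts and a threshold of 0.05. No covariate was used, as the study's methods name none. The steps were tested on simulated data. The design had allowed for single-library values, and its form for summary values was the one run. Alternatives were no variance trend, robust squeezing, a Wald test with a Sleuth-type variance, a mean of at least 100 counts, and 3 centrings.

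Of the transcripts, 98.6% were matched to GENCODE M21 by versioned identifier. Words of 31 bases were compared with all annotated transcripts. The members and the gene lists were chosen with earlier results of these data known. The text names every member, *Setd2*, *Cct6b*, *Actb*, *Actg1*, *Hspd1* and *Hspe1*, and in each list the called transcripts with the largest rise and fall. Other names are marked as chosen after their values were seen, the genes that share 31-base words and the cell type markers aside.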

Additional observations from a re-analysis of the deposited data

How the results depend on the processing

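The count of CCT transcripts called higher, 3 as reported, was 3 with robust squeezing and with centring on the median of all transcripts, 0 without a variance trend, 7 in the Wald test with a Sleuth-type variance, 5 among transcripts with a mean of at least 100 counts, 0 with centring on transcripts of at least 1000 counts and 1 with centring over GC content. The count called lower was 0 under each of these settings. The count over all transcripts, 3312 as reported, was 127 without a variance trend, 6233 in the Wald test and 1948 with centring over GC content, which covered the 33720 transcripts with a matched sequence. Of these calls, 56.2% were higher in KD as reported, 37.6% with centring on transcripts of at least 1000 counts and 40.2% without a variance trend. *Setd2* kept its log2(fold change) of −1.99 without a variance trend, with an adjusted p of 0.0537. The shorter *Cct4* isoform, ENSMUST00000020562.4, turned to −0.0005 with centring on transcripts of at least 1000 counts. Apart from what centring does by construction, the cause was not tested. Leaving out single libraries and another pseudocount were not run, since they need single-library values. No paired analysis was possible because the table holds no single-library columns for the replicate numbers of the labels. With 2 libraries a group, a transcript below the threshold is not shown to be unchanged.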
